A study of Canis lupus familiaris with 4 samples.

Results

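The miR-99/100 and miR-125 families were examined in extracellular vesicles (EVs) from 2 canine mammary carcinoma cell lines. Rows of the deposited miRNA table were taken by name, as cfa-mir-99a, cfa-mir-99b, cfa-mir-100, cfa-mir-125a or cfa-mir-125b with or without a copy number. This gave 6 of the 673 rows: cfa-mir-99a-1, cfa-mir-99a-2, cfa-mir-99b, cfa-mir-125a, cfa-mir-125b-1 and cfa-mir-125b-2. No row used here matched cfa-mir-100, so miR-100 is not analysed here. The 6 rows stand for 4 mature miRNAs and hold 5 distinct sets of values, because both miR-99a copies had the same value in every library. All 6 rows were above 0 in every library and none was removed by the filter on low values.

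EVs of CHMp, a line from a primary tumor, are called pTDEs, and EVs of CHMm, a line from a metastasis, are called mTDEs. Both lines came from mammary gland adenocarcinoma of the same dog, and both were grown in medium with fetal bovine serum and moved to serum-free medium before EVs were collected by ultrafiltration and ultracentrifugation. No treatment separated the groups. Each group held 2 replicate libraries. The study calls them biological replicates, and the sources used here do not say whether each came from its own EV preparation, so the p-values measure only the spread between these libraries. Each group is 1 cell line, so that a difference between primary tumor and metastasis cannot be told apart from a difference between these lines.

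Levels are given as counts per 1000000 reads (CPM), recovered from the deposited whole numbers. By the worth of 1 read, the rows summed to about 6296242 and 5053355 reads in pTDE replicates 1 and 2. In mTDE replicates 1 and 2 these sums were about 3457523 and 2330425. Copies of a miRNA repeat the same or nearly the same reads, so the sums exceed the number of reads behind them. RNA was read from pooled vesicles, so that fewer vesicles with a miRNA and less of it in each vesicle cannot be told apart. Epithelial miRNAs (the miR-200 family and miR-205) summed to 35.4 and 37.2 CPM in pTDEs against 22768 and 23878 CPM in mTDEs, and cfa-mir-141, cfa-mir-200a, cfa-mir-200b and cfa-mir-429 were listed at 0 in both pTDE libraries although CHMp is labeled as a carcinoma line. For each member, limma on log2(CPM + 1) compared the lines, and its p-values were adjusted by Benjamini-Hochberg over the 326 rows tested. Positive log2 fold changes mean a higher level in pTDEs, and they are on that scale unless another is named.

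Animal miRNAs recognize messenger RNAs mainly through the seed, a short stretch near their 5′ end, so that miRNAs with the same seed form a family with overlapping targets. miR-125 is the vertebrate counterpart of lin-4. Both lin-4 and let-7 were discovered as regulators of developmental timing in worms. The miR-99/100 family is an old relative of the miR-10 family. Repression of mTOR and IGF1R has been described for miR-99/100, and repression of LIN28, ERBB2 and ERBB3 for miR-125, which links both families to growth signaling in mammary epithelium. The families are neighbors in the genome: a miR-99/100 gene, a let-7 gene and a miR-125 gene lie together in clusters that are often transcribed as 1 primary transcript.

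In the RefSeq annotation of the UU_Cfam_GSD_1.0 dog assembly, all 6 rows matched a gene by name and fell into 3 such clusters. The first holds MIR125A, MIRLET7E and MIR99B, and MIR99B lies within the long noncoding RNA LOC111099011. The second holds MIR99A-1, MIRLET7C and MIR125B-2, all within the long noncoding RNA LOC102154980. The third holds MIR99A-2, MIRLET7A-2 and MIR125B-1. In this cluster MIR99A-2 and MIRLET7A-2 lie within the gene model of the protein-coding gene BLID, and MIR125B-1 lies within the long noncoding RNAs LOC106558788 and LOC111090004. In the human genome, the matching cluster carries miR-100 beside let-7a-2 and miR-125b-1. miR-99b, miR-125a, let-7e and let-7c each come from 1 of these clusters, whereas the reads of miR-99a and miR-125b cannot be assigned to the second or the third cluster.

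The copies differed little or not at all in value. cfa-mir-99a-1 and cfa-mir-99a-2 had a difference of 0 in every library. cfa-mir-125b-1 was above cfa-mir-125b-2 by 0.421% and 0.141% of its CPM in pTDE replicates 1 and 2 and by 0.142% in mTDE replicate 1, and the 2 rows were equal in mTDE replicate 2. These differences amount to 3, 1, 1 and 0 units of the rounded deposited values. In what follows miR-99a stands for both of its rows, and miR-125b is the mean of its rows where a ratio or a sum is given.

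Together the 4 mature miRNAs made up a few percent of every library. Their share was 2.79% (95% Wilson interval 2.78% to 2.81%) and 3.71% (3.70% to 3.73%) in pTDE replicates 1 and 2, against 5.52% (5.50% to 5.55%) and 3.75% (3.73% to 3.77%) in mTDE replicates 1 and 2. Each mature miRNA enters the shares here and below once, whereas the library total counts every copy row, also those of other miRNAs. The shares are therefore lower than they would be on a total with each miRNA counted once. The intervals rest on the same total. Reads copied by PCR are not separate molecules, so these intervals hold counting error alone. The mean share was 3.25% ± 0.649 in pTDEs and 4.64% ± 1.26 in mTDEs (SD, n = 2). Both mTDE libraries were above both pTDE libraries, but mTDE replicate 2 exceeded pTDE replicate 2 only narrowly. The exact permutation test of 2 against 2 libraries gave p = 0.333 (two-sided), which is the smallest value this design allows, so no difference between the lines could be shown for the share. The difference of -1.38 percentage points (pTDEs minus mTDEs) was -0.50 without mTDE replicate 1, -2.27 without mTDE replicate 2 and -2.52 with every copy counted.

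The families divided this share unequally. miR-99a and miR-99b together took 1.24% and 2.67% of pTDE replicates 1 and 2, against 2.74% and 2.93% of mTDE replicates 1 and 2. miR-125a and miR-125b together took 1.55% and 1.04% of the pTDE libraries, against 2.79% and 0.821% of the mTDE libraries. The miR-99 shares of the other libraries lay close together and pTDE replicate 1 stood below them, whereas for miR-125 mTDE replicate 1 stood above the rest. The miR-99 share did not overlap between the lines (exact permutation p = 0.333, two-sided) and the miR-125 share did (exact permutation p = 1.0, two-sided).

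miR-99a was the most abundant member by mean level in both lines. Its levels were 10738 and 23215 CPM in pTDE replicates 1 and 2, against 21503 and 25710 CPM in mTDE replicates 1 and 2. The pTDE value of replicate 1 stood apart below the other libraries, and pTDE replicate 2 lay between both mTDE libraries, so that the lines overlapped. miR-99a ranked 9 to 14 among all rows of a library. The pTDE mean was 16976 ± 8823 CPM and the mTDE mean 23606 ± 2975 CPM (SD, n = 2). This gave a log2 fold change of -0.57 ± 0.49 (standard error) and an adjusted p-value of 0.56 with limma. The fold change was -0.02 without pTDE replicate 1 and -1.13 without pTDE replicate 2.

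miR-99b, the paralog from the cluster with miR-125a, was several times less abundant. It was at 1678 and 3497 CPM in pTDE replicates 1 and 2, against 5870 and 3580 CPM in mTDE replicates 1 and 2. It was the only member whose lines did not overlap, with pTDE replicate 2 just under mTDE replicate 2. Its rank was 53 and 36 in the pTDE libraries and 27 and 45 in the mTDE libraries. Of the rows tested, 53.4% did not overlap between the lines, 26.1% with the higher level in pTDEs and 27.3% with the higher level in mTDEs. Among the 5 distinct members the count was 1, in the direction of mTDEs, below that background. The rows tested include rows listed at 0 throughout 1 line, which cannot overlap, whereas all members were above 0 in every library. The background is therefore not matched to the members, and nothing is read from the lower count. The pTDE mean of miR-99b was 2587 ± 1286 CPM and its mTDE mean 4725 ± 1620 CPM (SD, n = 2). The log2 fold change was -0.92 ± 0.53 (standard error), its 95% confidence interval ran from -2.35 to 0.51, and the adjusted p-value from limma was 0.39.

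miR-125b was the second most abundant member by mean level. cfa-mir-125b-1 had 13209 and 9221 CPM in pTDE replicates 1 and 2, against 24508 and 7383 CPM in mTDE replicates 1 and 2. Both the highest and the lowest value came from mTDEs, which enclosed the pTDE values. Its rank in a library ran from 8 in mTDE replicate 1 to 26 in mTDE replicate 2. The pTDE mean was 11215 ± 2820 CPM and the mTDE mean 15946 ± 12109 CPM (SD, n = 2). The log2 fold change was -0.29 ± 0.68 (standard error) with an adjusted p-value of 0.83 from limma.

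miR-125a was the least abundant member by mean level. It was at 2345 and 1191 CPM in pTDE replicates 1 and 2, against 3381 and 822 CPM in mTDE replicates 1 and 2. Again both mTDE libraries enclosed the pTDE libraries, and its rank ran from 37 to 86 in the mTDE replicates against 45 and 61 in pTDEs. The pTDE mean was 1768 ± 816 CPM and the mTDE mean 2101 ± 1809 CPM (SD, n = 2). The log2 fold change was 0.0035 ± 0.83 (standard error) with an adjusted p-value of 0.9998 from limma. The lowest of these values, in mTDE replicate 2, rested on 1915 reads, for a counting error of 2.29%, and the highest rested on 11688 reads in mTDE replicate 1. The mTDE replicates differed 4.11-fold.

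**Figure D1:**
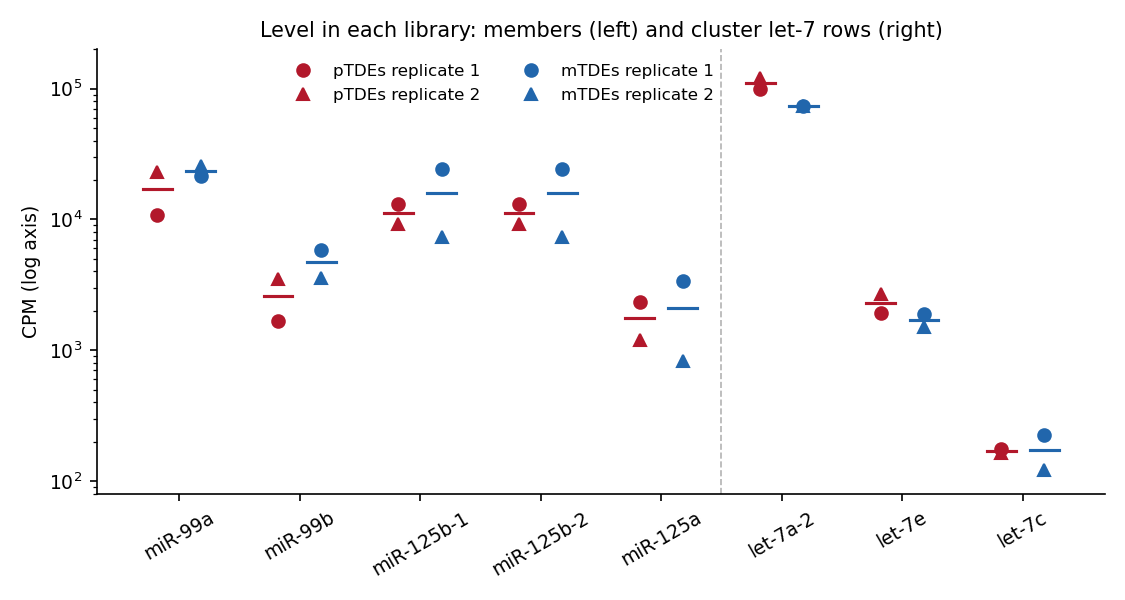
CPM on a log axis in each library for the miR-99 and miR-125 rows, left of the dashed line, and for the let-7 rows of their clusters, right of it. Red marks are pTDEs, blue marks are mTDEs, circles are replicate 1, triangles are replicate 2, and short lines are means of 2 libraries. miR-99b is the only member without overlap between the lines, from 1678 to 3497 CPM in pTDEs and from 3580 to 5870 CPM in mTDEs.

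No member differed between the cell lines at an adjusted p-value under 0.05. With limma, 0 of the 5 distinct members had an adjusted p-value under 0.05, against 1.84% of the rows tested, and 0 had an unadjusted p-value under 0.05, against 19.6%. The background itself depended on single libraries: without either pTDE library 37 rows were called higher and 4 lower in pTDEs, and without either mTDE library 0 rows were called by limma, with 25 higher and 48 lower (without mTDE replicate 1) or 51 higher and 26 lower (without mTDE replicate 2) at an unadjusted p-value under 0.05. No member was called in any of the 15 other fits either, limma voom included. The median log2 fold change of the 5 distinct members was -0.29, against -0.03 over all rows tested, and the median absolute value was 0.29 against 0.95. miR-125b enters these medians with 2 near-equal rows, and both medians are the value of cfa-mir-125b-2. By mature miRNA the values were 0.0035 (miR-125a), -0.29 (miR-125b), -0.57 (miR-99a) and -0.92 (miR-99b). The rows tested also include rows listed at 0 in 1 line. The absolute log2 fold change of miR-125a was equaled or exceeded by 99.7% of the rows tested and that of miR-99b by 51.2%. The miR-99 values were below 0 in all fits on recovered CPM or reads, and slightly above 0 (0.06 and 0.0025 for miR-99a and miR-99b) where the deposited numbers were taken as CPM. The miR-125 values changed sign within the fits on recovered CPM or reads. miR-125a was at -0.48 without pTDE replicate 1, -1.02 without mTDE replicate 2 and -0.023 with voom. Both miR-125b rows were at 0.58 without mTDE replicate 1. The intervals remained wide: the 95% confidence interval was -1.87 to 0.73 for miR-99a, -2.10 to 1.53 for cfa-mir-125b-1 and -2.23 to 2.24 for miR-125a. For miR-125a this interval corresponds to 0.213 to 4.72 times the mTDE level. In none of these cases does the missing call show that the levels were alike.

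**Figure D2:**
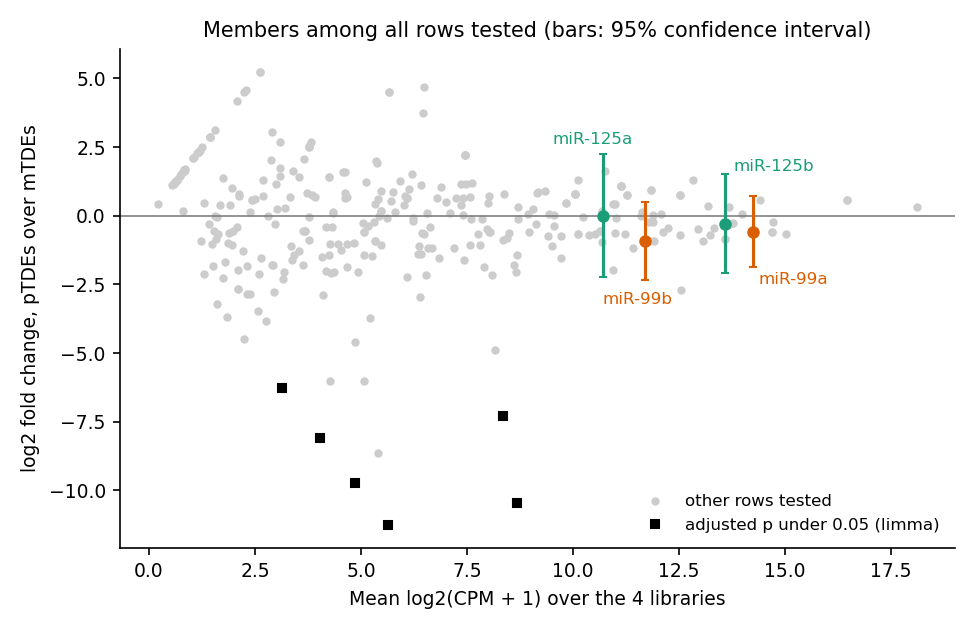
log2 fold change of pTDEs over mTDEs against mean log2(CPM + 1) over the 4 libraries, for the 326 rows tested. Gray dots are other rows, black squares are the 6 rows with a limma adjusted p-value under 0.05, orange dots are miR-99 and green dots miR-125 (miR-125b is cfa-mir-125b-1), each with its 95% confidence interval. The intervals of all members cross 0.

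The order of levels within each family was the same in every library. miR-99a exceeded miR-99b 6.40-fold and 6.64-fold in pTDE replicates 1 and 2 and 3.66-fold and 7.18-fold in mTDE replicates 1 and 2. The log2 ratio averaged 2.53 ± 0.444 (SD over 4 libraries). miR-125b exceeded miR-125a 5.62-fold and 7.73-fold in the pTDE replicates and 7.24-fold and 8.97-fold in the mTDE replicates, with a mean log2 ratio of 2.87 ± 0.282 (SD over 4 libraries). Each order held in 4 of 4 libraries. An exact sign-flip permutation test gave p = 0.125 (two-sided) for each of the 2 ratios, also after Benjamini-Hochberg adjustment, and this is the smallest value that 4 libraries allow. These are ratios of reads, not per length, and miRNAs of different sequence can be captured with different efficiency, which was not tested here. miR-99a and miR-125b are read from 2 gene copies and miR-99b and miR-125a from 1.

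The order between the families was not fixed. In the cluster of miR-99b and miR-125a, miR-99b was at 0.716 times the level of miR-125a in pTDE replicate 1 but at 2.93 times in pTDE replicate 2. The same ratio was 1.74 in mTDE replicate 1 and 4.35 in mTDE replicate 2. miR-99a was at 0.815 and 2.52 times the level of miR-125b in pTDE replicates 1 and 2 and at 0.878 and 3.48 times in mTDE replicates 1 and 2. miR-125b was thus the higher one in both replicate 1 libraries and miR-125a in pTDE replicate 1, whereas the miR-99 member was the higher one of each pair in both replicate 2 libraries. A size factor for a library cancels in such a ratio, but the ratio does depend on the constant by which CPM were recovered from the deposited values.

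Between the lines, both ratios of a miR-99 over a miR-125 member differed by less than between the replicates of either line. The log2 ratio of miR-99b over miR-125a was 0.54 ± 1.44 in pTDEs and 1.46 ± 0.94 in mTDEs (SD, n = 2), a difference of -0.92. This difference was 0.094 without pTDE replicate 1 and -1.94 without pTDE replicate 2. Replicate 2 exceeded replicate 1 by 2.04 in pTDEs and by 1.33 in mTDEs. For miR-99a over miR-125b, the difference between the lines was -0.29, and the gaps between the replicates were 1.63 in pTDEs and 1.99 in mTDEs. With 1 library left out, that difference ranged from -1.28 to 0.71. The let-7 ratios were not all alike in this: let-7a-2 over miR-125b differed by 0.86 between the lines, more than the gap of 0.79 between the pTDE replicates and less than that of 1.71 between the mTDE replicates. Exact permutation tests of pTDEs against mTDEs gave p = 0.667 (two-sided) for each of the 5 cluster pairs compared, before and after Benjamini-Hochberg adjustment, where 0.333 is the smallest value possible. The 5 pairs all have miR-125a or miR-125b as denominator and are not independent.

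**Figure D3:**
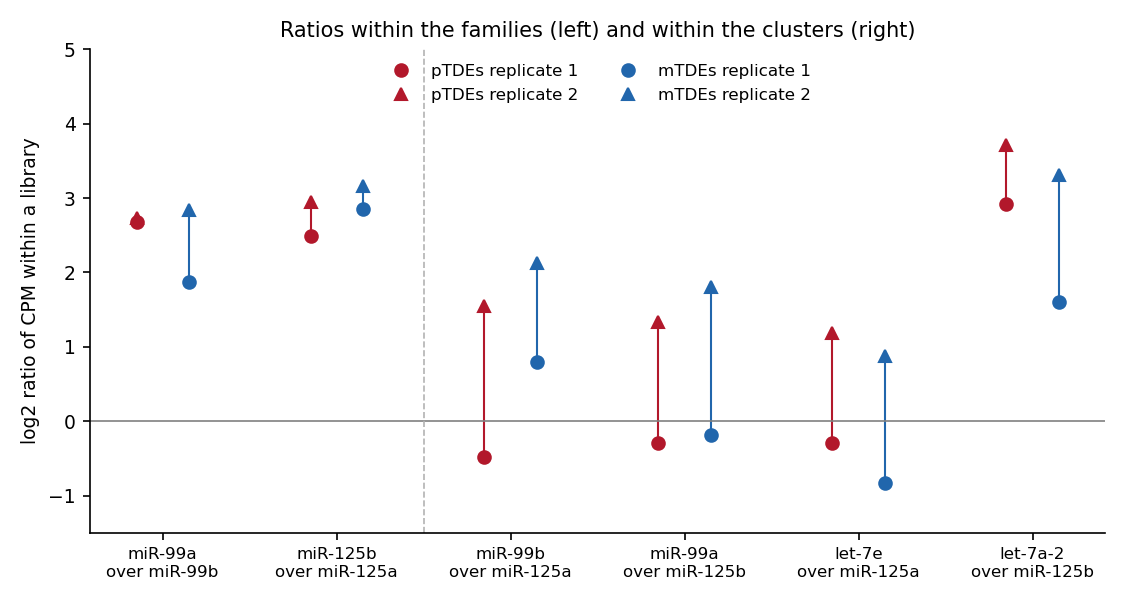
log2 ratio of CPM within each library, for the pair of paralogs in each family left of the dashed line and for cluster neighbors right of it (let-7c, far below the axis, is left out). Red marks are pTDEs, blue marks are mTDEs, circles are replicate 1, triangles are replicate 2, and lines join the replicates of a cell line. For every cluster pair drawn, each triangle lies above the circle of the same line. All these pairs have miR-125a or miR-125b as denominator, so they are not independent. miR-99b over miR-125a spans -0.48 to 2.12.

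The let-7 genes of the clusters were read next. let-7e, the neighbor of miR-99b and miR-125a, was at 1917 and 2700 CPM in pTDE replicates 1 and 2, against 1892 and 1504 CPM in mTDE replicates 1 and 2. It was thus of the same order as its cluster neighbors in every library, and its pTDE libraries were above its mTDE libraries, by a narrow margin in replicate 1. Such an order without overlap was seen in 26.1% of the rows tested. Relative to miR-125a it was at 0.817 and 2.27 times in the pTDE replicates and at 0.560 and 1.83 times in the mTDE replicates.

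let-7c, the neighbor of miR-99a-1 and miR-125b-2, was far lower, at 175 and 165 CPM in pTDEs against 223 and 122 CPM in mTDEs. Its level was 0.0133 and 0.0180 times that of miR-125b in pTDE replicates 1 and 2 and 0.00916 and 0.0167 times in mTDE replicates 1 and 2. cfa-let-7a-2, the neighbor of miR-99a-2 and miR-125b-1, stood at 99812 and 121015 CPM in pTDEs against 74088 and 73290 CPM in mTDEs, but cfa-let-7a-1 differed from it by at most 0.817% in any library, so the reads of this miRNA cannot be assigned to the cluster. let-7 miRNAs are close in sequence, so the split of reads among them is uncertain. Of the 3 let-7 rows, 0 had a limma adjusted p-value under 0.05, against 1.84% of the rows tested. Their log2 fold changes were 0.04 (let-7c), 0.43 (let-7e) and 0.58 (let-7a-2), with limma adjusted p-values of 0.99, 0.58 and 0.35. Their median was 0.43, against -0.03 over all rows tested.

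The miR-10 relatives of the miR-99/100 family were of unequal level. cfa-mir-10b was at 6397 and 22699 CPM in pTDE replicates 1 and 2, against 12580 and 17628 CPM in mTDE replicates 1 and 2, which overlapped. cfa-mir-10a was at 37.6 and 63.9 CPM in pTDEs against 148 and 112 CPM in mTDEs, lower in both pTDE libraries, as were 27.3% of the rows tested. With limma, 0 of these 2 rows had an adjusted p-value under 0.05, against 1.84% of the rows tested. The log2 fold change was -0.31 for miR-10b (limma adjusted p = 0.83) and -1.38 for miR-10a (limma adjusted p = 0.33). The profiles over the libraries were compared by the root mean square difference between log2(CPM + 1) values centered over the 4 libraries, which was 0.30 between miR-99a and miR-10b and 0.48 between miR-99a and miR-10a.

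By this measure, paralogs of a family were closer to each other than to the other family's member in their cluster. The root mean square difference was 0.38 between miR-99a and miR-99b and 0.24 between cfa-mir-125a and cfa-mir-125b-1. It was 0.98 between miR-99b and miR-125a and 0.92 between miR-99a and cfa-mir-125b-1. The distance of let-7e was 0.72 to miR-99b and 0.82 to miR-125a. That of let-7c was 0.66 to miR-99a but 0.38 to cfa-mir-125b-1, as small as between miR-99a and miR-99b. The 3 rows outside the families with the profile most like that of miR-99 were cfa-mir-183 (0.17), cfa-mir-92a-1 (0.22) and cfa-mir-128-1 (0.25), against a median of 0.99 over the 243 rows compared. cfa-mir-183 was at 4735 and 8149 CPM in pTDE replicates 1 and 2, against 13976 and 9720 CPM in mTDE replicates 1 and 2. The rows most like miR-125 were cfa-mir-151 (0.35), cfa-let-7b (0.42) and cfa-let-7c (0.44), against a median of 1.24, and let-7c is also a cluster neighbor of miR-125b-2. With 4 libraries that share their scaling, these distances only describe the profiles.

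The gap between replicates was then set beside that of other rows. Over the 219 rows with at least 10 reads in every library, the median absolute difference between replicates was 0.62 in pTDEs and 0.86 in mTDEs on the log2(CPM + 1) scale. miR-125a was higher in replicate 1 by 0.98 in pTDEs and by 2.04 in mTDEs. cfa-mir-125b-1 was higher in replicate 1 by 0.52 and by 1.73. Both miR-125 miRNAs thus belonged to the 15.5% of rows (34 of 219) that were higher in replicate 1 of both lines. miR-99a was lower in replicate 1 by 1.11 in pTDEs and 0.26 in mTDEs, and 39.3% of the rows (86 of 219) were likewise higher in replicate 2 of both lines. miR-99b was higher in replicate 2 of pTDEs and in replicate 1 of mTDEs, an opposite order that 45.2% of the rows (99 of 219) showed. The gap of miR-125a was equaled or exceeded in pTDEs by 29.2% and in mTDEs by 19.2% of all 219 rows, and that of cfa-mir-125b-1 by 60.7% and 26.0%. For miR-99a these shares were 23.3% and 84.9%, and for miR-99b 25.1% and 55.3%, so that gaps of this size were common among the rows.

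**Figure D4:**
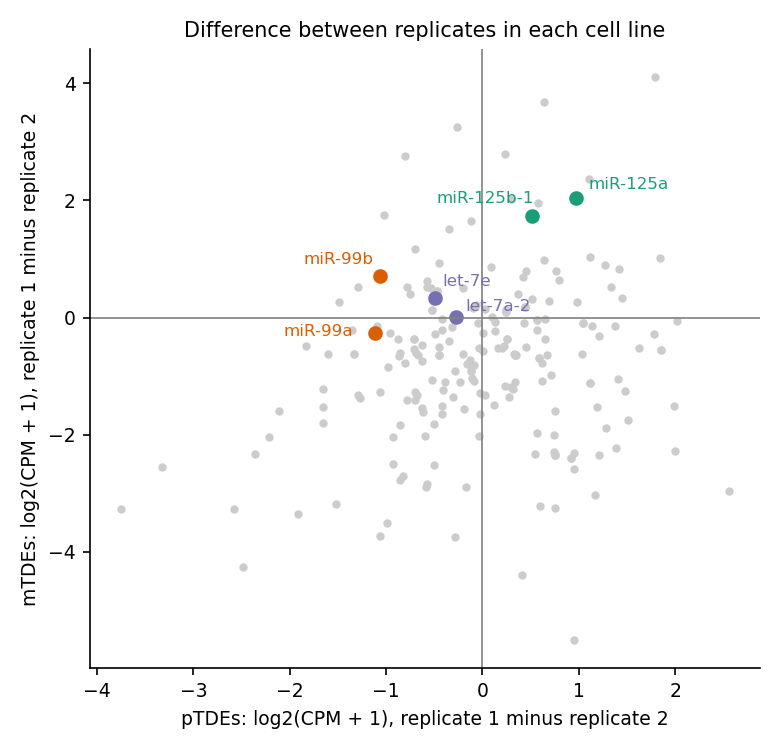
Difference of log2(CPM + 1) between replicate 1 and replicate 2 in pTDEs (horizontal axis) and in mTDEs (vertical axis), for the 219 rows with at least 10 reads in every library. Gray dots are other rows, green dots are miR-125, orange dots are miR-99 and purple dots are let-7 neighbors. miR-125a (0.98 and 2.04) and cfa-mir-125b-1 (0.52 and 1.73) lie in the upper right, and miR-99a lies in the lower left.

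Sums of blood cell and of stromal miRNAs were, like the cluster ratios, higher in replicate 2 of both lines. This order was common, with 39.3% of the 219 rows above showing it. Blood cell miRNAs (cfa-mir-451 and cfa-mir-486-3p, with cfa-mir-144 listed at 0 in every library) summed to 233 and 814 CPM in pTDE replicates 1 and 2, against 624 and 2820 CPM in mTDE replicates 1 and 2. The miRNAs of mesenchymal and stromal cells (cfa-mir-143, cfa-mir-145, the cfa-mir-199 rows counted once and cfa-mir-214) summed to 589 and 926 CPM in pTDEs against 81.6 and 762 CPM in mTDEs. Not every miRNA of that list followed the sum: cfa-mir-143 (102 and 573 CPM in pTDEs, 24.0 and 482 CPM in mTDEs) made most of the gap, while each cfa-mir-199 row was at 481 and 286 CPM in pTDEs and cfa-mir-214 at 6.94 and 1.71 CPM in mTDEs, in the opposite order. Depth went the other way, with replicate 2 the shallower library in each line. The liver miRNA cfa-mir-122 was higher in replicate 2 of mTDEs only, at 158 and 98.5 CPM in pTDEs against 364 and 570 CPM in mTDEs. The part of these measures in the ratios was not tested. The methods name HiSeq and NovaSeq instruments without saying which library ran on which, so that this could not be set beside the ratios.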

How the data were processed

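Small RNA of EVs was sequenced in 2 CHMp (pTDE) and 2 CHMm (mTDE) libraries, grouped by their sample titles. Per the labels and the paper's methods, the authors trimmed reads with cutadapt, kept those of 22 to 30 bases, merged forward and reverse reads and used miRDeep2 to quantify miRNAs of miRBase and their own predictions (CanFam3.1); versions are not given in the sources used here. How the length limit touched each mature miRNA was not tested. The values deposited for each library count as a score here: they are whole numbers that total about 1000000 and are described as CPM, but their low values have uneven steps. The authors' own comparison in the deposited table (log2 fold changes and mean log2 CPM, a likelihood ratio score, p-values and false discovery rates from edgeR) was not used. There were 0 columns of samples outside the series.

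CPM were recovered as 2 to the power of (value/s), minus 1, with s (495, 493, 487 and 426 in the order pTDE and mTDE replicates 1 and 2) solved so that a library totals 1000000. The step of the low values was taken as 1 read. limma took log2(CPM + 1), eBayes and a trend in the variance, keeping rows that 1 line or both had above 0 in each replicate; the prior degrees of freedom were 2.4. Ratios and shares had exact permutation tests. Python 3.11.15, numpy 2.4.6, pandas 2.3.3, scipy 1.17.1, R 4.3.3 and limma 3.58.1 were used. Both steps were run on simulated data made with the same form of conversion and with planted changes. Such data cannot show that the deposited values have this form. The members, the lists and the alternatives were chosen with earlier results of these data known. The miRNAs named are the members, the let-7 rows of their clusters, miR-10a and miR-10b, the marker lists, and for each family the 3 other rows of at least 10 CPM on average with the closest centered profile; cfa-let-7a-1 falls outside this rule and was chosen after its values were seen.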

Additional observations from a re-analysis of the deposited data

How the results depend on the processing

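Alternatives were other pseudocounts (0.1 and 5 CPM) and filters, reading the deposited values as CPM, scaling by median ratios, no trend, limma voom, identical rows counted once, known miRNAs only, a replicate block and leaving out each library, where the lone library of a line is assumed to vary like the other line. No member was called in any of the 15 other fits (adjusted p from 0.28 to 0.9998 in limma), and 66 of 75 member values kept their sign. The median log2 fold change of all rows moved by 0.25 with median-ratio scaling, where miR-99b was at -0.68 and miR-125a at 0.24. The deposited values taken as CPM turned miR-99a to 0.058, miR-99b to 0.0025, both miR-125b rows to 0.089 and the difference in summed share to 0.097 percentage points (cause not tested); voom turned miR-125a to -0.023.

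Without 1 library the log2 fold change ranged from -1.02 to 1.02 for miR-125a, from -1.15 to 0.58 for each miR-125b row, from -1.13 to -0.02 for miR-99a and from -1.45 to -0.39 for miR-99b. miR-125a was at -0.48 without pTDE replicate 1 and -1.02 without mTDE replicate 2, and both miR-125b rows were at 0.58 without mTDE replicate 1. The difference between the lines in log2 ratio ranged from -1.94 to 0.094 for miR-99b over miR-125a, from -1.28 to 0.71 for miR-99a over miR-125b, from -0.43 to 1.28 for let-7e over miR-125a, from -0.11 to 0.76 for let-7c over miR-125b and from 0.0066 to 1.72 for let-7a-2 over miR-125b; that in summed share ranged from -2.27 to -0.50 percentage points. The ratios within the families stayed between 2.43 and 2.75 (miR-99) and between 2.77 and 2.99 (miR-125) without 1 library, but with the deposited values read as CPM they were 0.28 and 0.34, and the differences between the lines in the 5 cluster ratios shrank to between -0.12 (miR-99b over miR-125a) and 0.078 (let-7a-2 over miR-125b).

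The replicate numbers do not pair the samples by the labels. With the replicate block miR-99b stayed at -0.92 (limma adjusted p = 0.41), no member was called, and the calls over all rows were 0 higher and 7 lower in pTDEs, against 0 and 6. Other choices moved these calls more: higher and lower rows were 28 and 11 with a pseudocount of 0.1 CPM, 39 and 11 with the deposited values as CPM, 5 and 9 with median-ratio scaling, 5 and 11 with voom, 4 and 9 without a trend or with known miRNAs only, 0 and 9 for rows averaging 10 CPM or more, 37 and 4 without either pTDE library, and 0 and 0 without either mTDE library, where limma left 25 and 48 (without replicate 1) and 51 and 26 (without replicate 2) at an unadjusted p under 0.05. Over 219 rows the differences between replicates correlated with r = 0.18 between the lines, a description across rows that are not independent.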
